A study of Homo sapiens with 14 samples.

Results

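Interferon-stimulated genes were examined as a fixed list of 47 gene symbols among the 60683 gene identifiers counted in each library. All 47 were matched to an identifier, and they were grouped by known role into nucleic acid sensing, transcription factors, the ISG15 system, the IFIT, OAS and IFITM families, other antiviral effectors, the PARP9, DTX3L and PARP14 group, and the remaining genes. RNA was sequenced from 2 cancer cell lines, A549 from lung and SUM159 from breast, in 7 groups of 2 libraries. A549 was left untreated, or received 2 μM palbociclib, 0.5 μM indisulam or both drugs together (the combination) for 10 days, or 0.5 μM PF-06873600 for 7 days. SUM159 was left untreated or received 0.5 μM PF-06873600 for 7 days. Palbociclib inhibits the cell cycle kinases CDK4 and CDK6, PF-06873600 also inhibits CDK2, and indisulam leads to degradation of the splicing factor RBM39. A549 was grown in RPMI and SUM159 in DMEM/F12 with insulin and hydrocortisone, so line and medium cannot be told apart, and the collection time of untreated cells was not given in the sources used here. The submitters call the libraries technical duplicates, so every p-value below rests on spreads between the 2 libraries of a group that may be technical only. For each gene that spread was estimated from all groups in a fit, which in A549 include groups not compared. Counts on genes ranged from 13060374 in an A549 PF-06873600 library to 21149256 in a SUM159 PF-06873600 library. Levels are given as CPM, each count divided by the library's total on genes and multiplied by 1000000, and a floor of 3 counts corresponded to 0.142 to 0.230 CPM across libraries. RNA of pooled cells was measured, so fewer cells with a transcript and less transcript per cell cannot be told apart.

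Interferons are secreted proteins that cells release after sensing foreign or misplaced nucleic acid. Type I and type III interferons bind receptors that act through the kinases JAK1 and TYK2, and the resulting complex, which includes STAT2 and IRF9, binds the interferon-stimulated response element (ISRE) in promoters. Interferon gamma acts on a different element (GAS), and IRF1 also binds ISRE sequences. In tumour cell lines the same genes are known to be expressed to some degree without added interferon and to be raised in senescent cells.

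Promoters were inspected because the listed genes are defined by a shared response. Of the 47 members, 36 had an entry in a RefSeq promoter table of build GRCh38.p14, and the 250 bases before each start were searched on both strands. The ISRE core, spelled GAAA, any 2 bases and GAAA again, was present before 24 of these 36 genes, against 3.02% of all 35093 promoters of the same length. The GAS element, spelled TTCNNNGAA, was present before 11 of 36, against 6.57% of all promoters. A member was counted if any of its listed promoters held a match, whereas both background shares are of single promoters. A match describes letters and not binding, and an ISRE core and a GAS element can share bases. Stretches of 60 bases are shown for 8 members on which the comparisons below turn. They are written 5′ to 3′ on the strand of the gene, with each ISRE core, in either orientation, in capitals.
ISG15, chr1:1013361-1013420, plus strand: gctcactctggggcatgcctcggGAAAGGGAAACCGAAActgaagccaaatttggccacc
IFIT1, chr10:89392488-89392547, plus strand: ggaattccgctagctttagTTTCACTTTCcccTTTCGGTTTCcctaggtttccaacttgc
HERC5, chr4:88457019-88457078, plus strand: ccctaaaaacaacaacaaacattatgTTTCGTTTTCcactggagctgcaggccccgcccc
SAMD9, chr7:93118082-93118141, minus strand: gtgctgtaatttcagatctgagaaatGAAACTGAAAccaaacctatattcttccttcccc
IFITM1, chr11:313974-314033, plus strand: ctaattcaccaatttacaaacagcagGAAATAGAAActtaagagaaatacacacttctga
IFI6, chr1:27672252-27672311, minus strand: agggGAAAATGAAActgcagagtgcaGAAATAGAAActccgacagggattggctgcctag
IFI44L, chr1:78620349-78620408, plus strand: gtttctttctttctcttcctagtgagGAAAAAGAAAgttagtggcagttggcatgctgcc
BST2, chr19:17405724-17405783, minus strand: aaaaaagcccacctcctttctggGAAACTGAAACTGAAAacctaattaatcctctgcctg
The 8 genes were chosen among members that hold the core, so its presence in each window is no result. PF-06873600 lowered IFIT1, HERC5 and SAMD9 in SUM159, raised IFITM1, IFI6, IFI44L and BST2 there, and left ISG15 short of the threshold, as described below.

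The line labels were compared with marker genes. A549 libraries held 7 of 8 A549 markers above 3 counts, led by the aldo-keto reductase AKR1B10 in untreated cells (6296 and 6667 CPM), while CDKN2A, which A549 should lack, was listed at 0 in every A549 library. With 0 to 3 counts in the SUM159 libraries, CDKN2A does not separate the lines. The 8 A549 markers summed to 16734 and 16722 CPM untreated and to 15588 and 15086 with the combination, where AKR1B10 was lower (1554 and 1555 CPM) and the keratin gene KRT8 higher (5109 and 4899 CPM, against 2344 and 1908 untreated). The 5 SUM159 markers summed to 1624 and 1617 CPM in untreated A549, 2035 and 1977 with palbociclib, 2554 and 2643 with indisulam, 2910 and 2979 with PF-06873600 and 3893 and 3896 with the combination, led by VIM or the adhesion receptor CD44, against 7545 and 7022 in untreated SUM159. This is the order in which the summed levels of the members, given below, stood in the A549 groups, and the part of these marker changes in the member results was not tested. SUM159 libraries had the mesenchymal filament gene VIM at 3609 to 4318 CPM and the epithelial adhesion gene EPCAM at 0.284 to 0.844 CPM. Of 3 receptors of which a line of its breast cancer class should be low, PGR was at 0 and ESR1 at 0.0626 to 0.662 CPM, but ERBB2 was at 118 to 130 CPM, close to the 109 to 166 CPM of A549. The chi-square per degree of freedom between replicates, over genes, was 9.57 in untreated A549 and 9.05 in untreated SUM159, against 1.61 to 5.04 in the other groups. By the correlation of log2 CPM, untreated A549 was again the lowest (0.994), while untreated SUM159 (0.9966) was within the 0.9963 to 0.9979 of the treated groups.

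Transcripts of the interferons themselves were mostly below detection. Of 21 ligand genes, 15 had no count in any of the 14 libraries, and 5 others (IFNA1, IFNA10, IFNB1, IFNK and IFNL1) summed to 8 counts over all libraries, with at most 2 in one. Interferon epsilon (IFNE), a type I interferon best known from the female reproductive tract, was the exception. It measured 6.12 and 3.67 CPM in untreated A549, 2.23 and 4.94 with palbociclib, 3.94 and 3.24 with indisulam, 3.55 and 2.77 with the combination, and 1.15 and 2.10 with PF-06873600, and had no count in SUM159. The untreated pair was widely spread, and only the PF-06873600 pair lay below it with a difference past the threshold (log2 fold change -1.55 ± 0.38 SE, edgeR adjusted p = 0.00291). Ligands at so few counts were not detectable at this depth, which is not evidence of their absence. IFNE overlaps MIR31HG, a gene of the same strand, without sharing exon bases with it. Whether reads from unspliced RNA of MIR31HG were counted as IFNE was not tested.

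The members differed widely in level. Per kilobase of exon, LGALS3BP, a secreted glycoprotein that binds galectins, was the highest with 75.03 CPM per kilobase in untreated A549 and 144 in untreated SUM159. In untreated A549, 42 of 47 members were above 3 counts in both libraries, and OASL, MX2, RSAD2, IFI44 and XAF1 were not. In untreated SUM159, 46 of 47 were, and CMPK2 was not. The median member stood at 3.67 CPM in untreated A549 and at 25.7 CPM in untreated SUM159. Summed over members, A549 libraries held 1269 and 1227 CPM untreated, 1497 and 1470 with palbociclib, 1693 and 1701 with indisulam, 2220 and 2202 with the combination, and 1916 and 1955 with PF-06873600. SUM159 libraries held 2210 and 2133 CPM untreated and 3687 and 3731 with PF-06873600. LGALS3BP made up a large share of these sums, but the order of the A549 groups was the same without it, from 978 and 1004 CPM untreated to 1568 and 1592 with the combination.

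**Figure D1:**
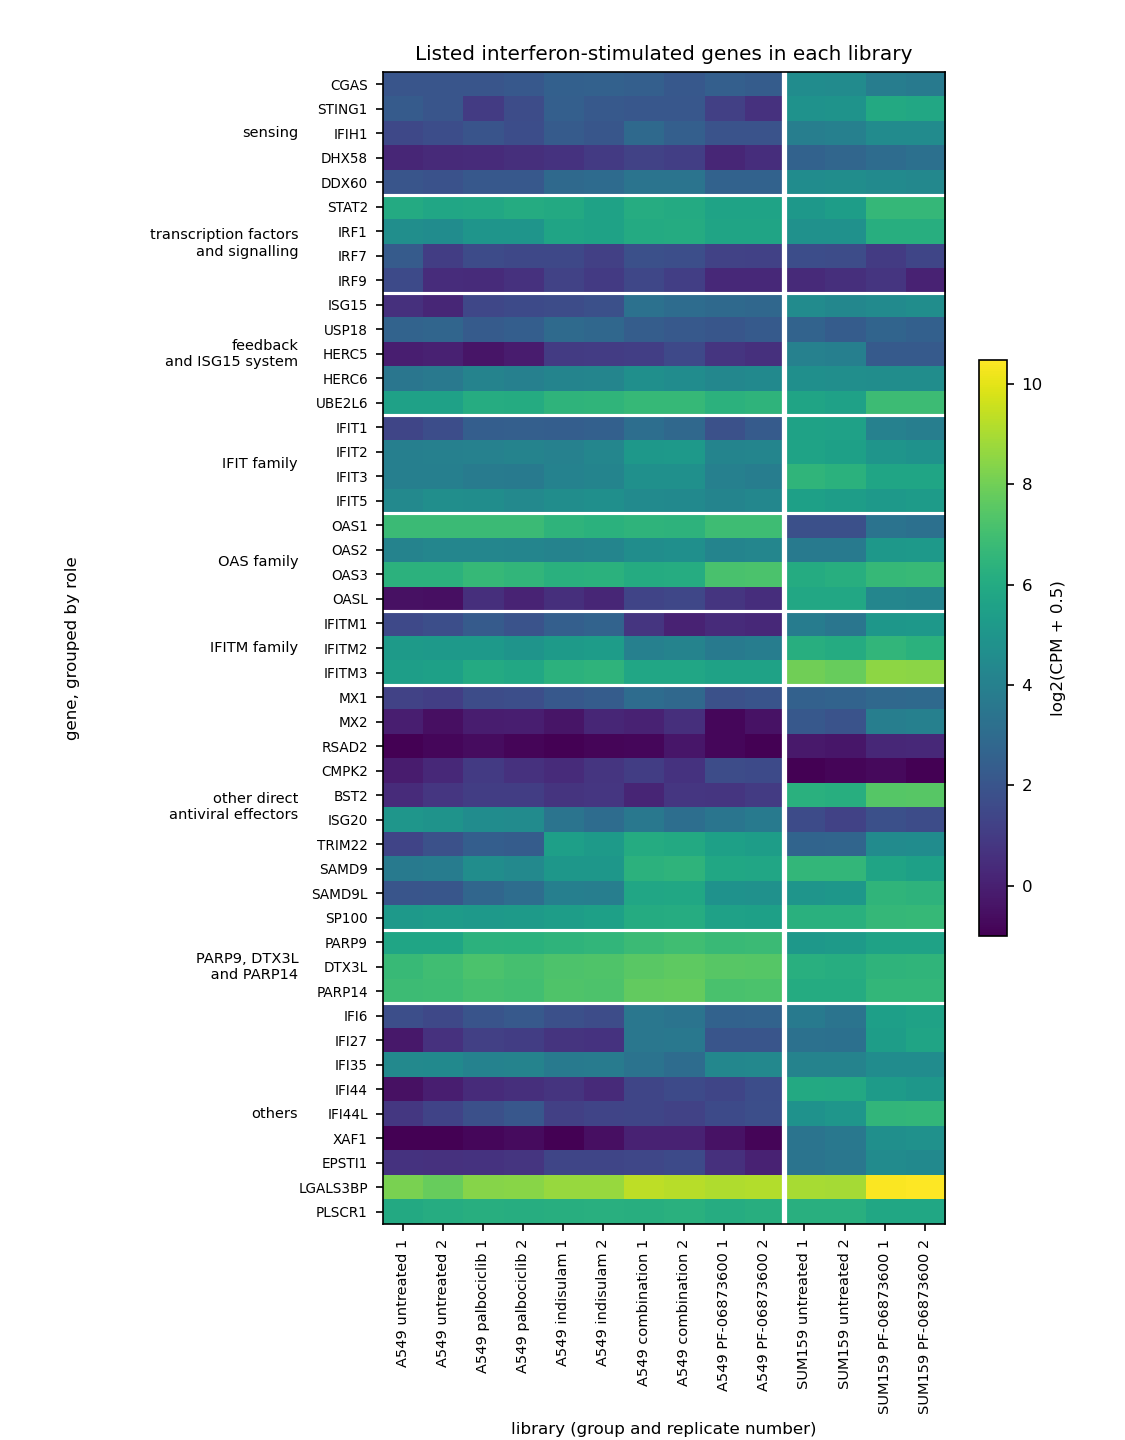
Level of each of the 47 members (rows, grouped by role) in each of the 14 libraries (columns), as log2(CPM + 0.5) on the colour scale. LGALS3BP is the brightest row, the 4 SUM159 libraries on the right are brighter than A549 for sensing genes, OASL, BST2 and IFI44, and darker for OAS1 and ISG20.

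Palbociclib alone changed the fewest members in A549. Of 44 members tested, 16 rose and 3 fell, and the median log2 fold change was 0.29. Over all genes tested, 8.30% rose and 7.40% fell, with a median of -0.0056. MX2, RSAD2 and XAF1 were too low in A549 for the test. Among called members of at least 1 CPM, the ubiquitin-like modifier ISG15 rose most, from 1.02 and 0.667 CPM to 2.23 and 2.44 (2.77-fold, log2 1.47 ± 0.29, edgeR adjusted p = 0.00316). IFIT1, which binds foreign RNA ends, rose from 2.11 and 2.80 to 4.97 and 5.00 CPM (2.03-fold, adjusted p = 0.00649). SAMD9L and SAMD9, neighbouring paralogs on chromosome 7 that restrain translation in infected cells, rose 1.98-fold and 1.67-fold. The fallers were STING1, the adaptor of cytosolic DNA sensing, ISG20, an RNA exonuclease, and IFI35. STING1 went from 4.49 and 3.60 to 1.48 and 2.68 CPM, and ISG20 from 32.6 and 29.5 to 23.3 and 22.8 CPM. All 3 falls were lost with DESeq2, and a fit of only the compared groups gave 7 rises and 1 fall. Of the 19 members called, 12 lost their call in at least 1 other setting.

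Indisulam alone raised 23 of the 44 members and lowered 3, with a median log2 fold change of 0.61, while 28.0% of all genes rose and 17.5% fell with a median of 0.080. With TMM scaling the split of all calls moved from 4420 higher and 2757 lower to 3613 and 3558, and 1 member, SP100, lost its call. TRIM22, an antiviral ubiquitin ligase (chr11:5689610-5737089, hg38), stood apart. It rose from 2.04 and 3.13 CPM untreated to 44.3 and 37.9 CPM (15.8-fold, log2 3.98 ± 0.15, edgeR adjusted p = 9.79e-11), against 4.97 and 4.52 CPM with palbociclib. Both indisulam libraries were several times above every untreated and palbociclib library. SAMD9L rose 4.0-fold to 14.9 and 14.5 CPM, and MX1, a GTPase that traps viral capsids, rose 2.38-fold to 3.94 and 4.56 CPM. HERC5, the main ligase that attaches ISG15 to proteins, rose 3.04-fold from 0.476 and 0.533 CPM to 1.52 and 1.59. The RNA sensor gene DDX60 rose 2.13-fold. ISG20 fell to 10.1 and 7.93 CPM (3.45-fold lower, adjusted p = 1.81e-07), and OAS1 and IFI35 fell as well.

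The combination raised 29 of 44 members and lowered 7, with a median log2 fold change of 0.97. Of all genes, 35.1% rose and 30.0% fell, with a median of 0.052. TMM scaling turned this balance, from 5544 higher and 4739 lower to 4908 and 5397, with a median of -0.033. Among members, only PLSCR1 lost its call with it. TRIM22 reached 65.9 and 62.6 CPM (24.7-fold over untreated), SAMD9L 54.3 and 56.7 CPM (15.1-fold) and SAMD9 81.3 and 87.1 CPM (6.30-fold), with edgeR adjusted p from 1.34e-12 to 3.42e-12. IFI27, which encodes a small mitochondrial protein, rose from 0.34 and 1.07 CPM to 11.1 and 11.5 CPM (15.8-fold, log2 3.98 ± 0.27, adjusted p = 7.12e-09). Its untreated libraries held 5 and 16 counts, and the log2 fold change was 3.39 without untreated replicate 1 and 5.02 without untreated replicate 2. ISG15 rose to 9.36 and 7.79 CPM (10.1-fold) and IFI6, a small membrane protein, to 11.1 and 10.3 CPM (4.11-fold). OASL, a relative of the oligoadenylate synthetases that assists the RNA sensor RIG-I, had 3 and 3 counts in untreated libraries and 29 and 35 in combination libraries, a ratio of 10.7 with an exact 95% interval of 4.65 to 30.2 that covers counting error only. IFI44 went from 3 and 7 counts to 30 and 39. XAF1, an antagonist of the apoptosis inhibitor XIAP, had no count in untreated A549 and 8 and 9 counts with the combination, at least 2.84-fold above the floor of 3 counts per library.

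The calls with the combination are given by role, beside the 35.1% of all genes that rose and 30.0% that fell. Of the 5 sensing genes, the RNA sensors IFIH1, DHX58 and DDX60 rose (log2 1.25, 1.26 and 1.56), while the DNA sensor CGAS (0.32) and its adaptor STING1 (-0.083) did not pass the threshold. Of the 4 transcription factors only IRF1 rose, from 24.8 and 23.6 to 65.3 and 66.2 CPM, and STAT2, IRF7 and IRF9 did not pass. IRF9 had only 10 to 36 counts in the A549 libraries. Another gene of the same strand shares 23.9% of its exon bases, so some of its reads may have been set aside as ambiguous. In the ISG15 system the modifier, its conjugating enzyme UBE2L6 (log2 1.13), HERC5 (2.01) and HERC6 (1.10) rose, and the deconjugating protease USP18 fell (-0.44). The IFIT genes IFIT1, IFIT2 and IFIT3 rose (1.64, 1.22 and 0.84) and IFIT5 did not pass. In the OAS family, whose enzymes make the activator of RNase L, OASL and OAS2 rose and OAS1 and OAS3 fell (-0.37 and -0.29). In the IFITM family, membrane proteins that hinder virus entry, IFITM1 and IFITM2 fell (-1.59 and -1.17) and IFITM3 rose (0.32). IFITM2 and IFITM3 are close paralogs, so reads can be split between them. PARP9, DTX3L and PARP14, which act in ADP-ribosylation and ubiquitination, all rose (1.16, 0.77 and 0.83). USP18, DHX58, CMPK2, EPSTI1 and PLSCR1 lost their call in at least 1 other setting.

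**Figure D2:**
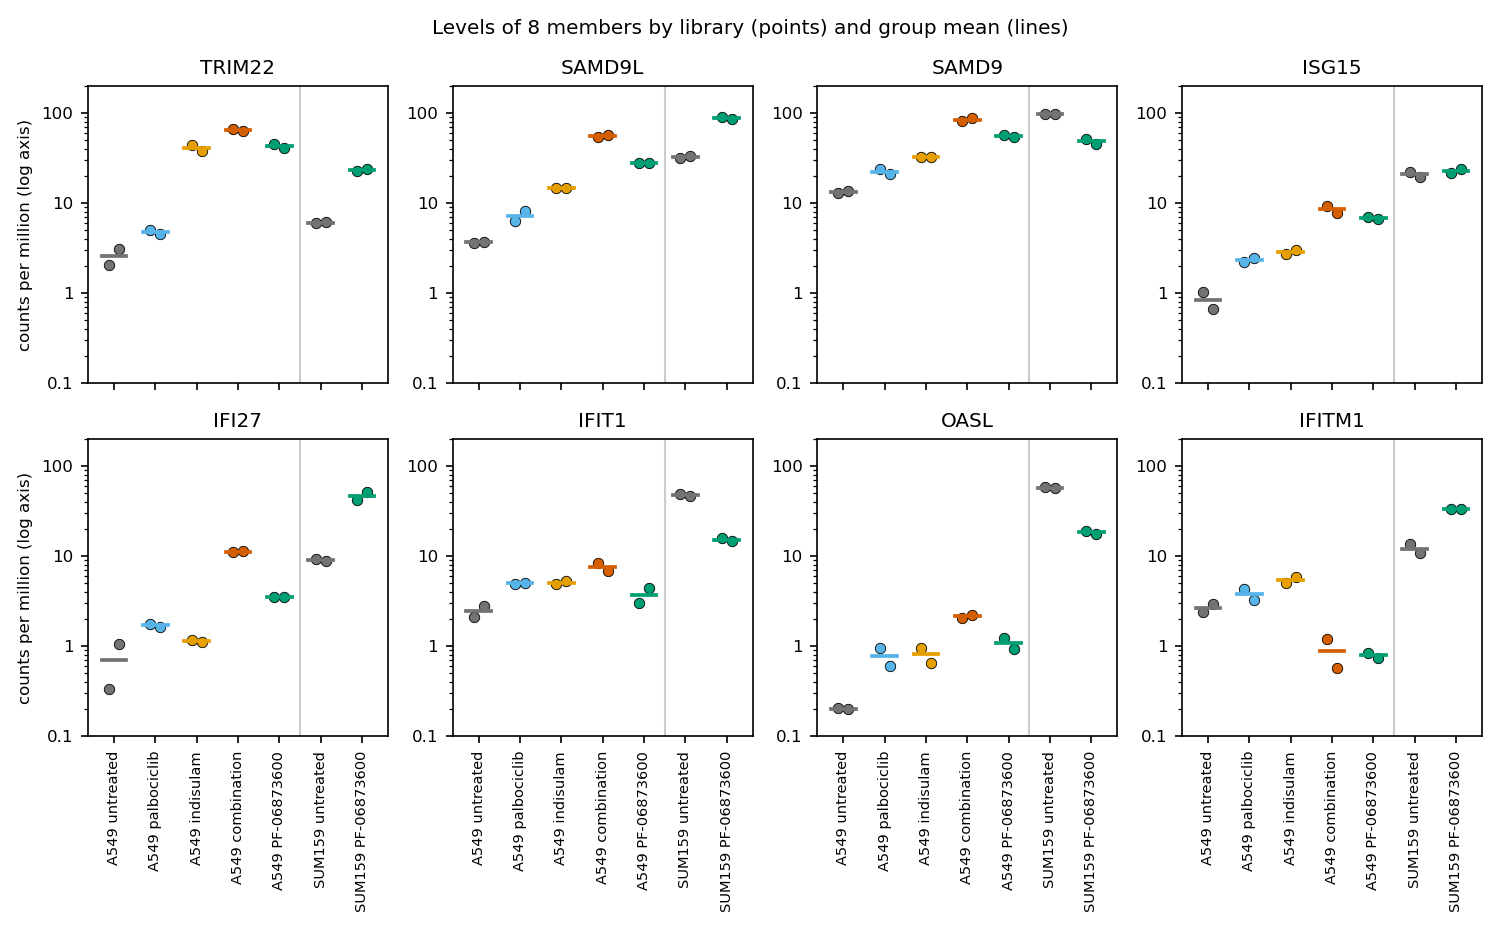
Level of 8 members in CPM on a log axis for the 7 groups, with 1 point per library and a line at each group mean. In A549, TRIM22, SAMD9L, SAMD9, ISG15, IFI27, IFIT1 and OASL are highest with the combination, while IFITM1 is low with the combination and PF-06873600. In SUM159, SAMD9, IFIT1 and OASL are lower with PF-06873600 and IFITM1 is higher.

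Whether both drugs together differed from each drug alone was tested directly. Against palbociclib, the combination was higher in 28 members and lower in 7 of 44 (33.5% and 26.9% of all genes). The calls over all genes, 5279 higher and 4250 lower, became 4542 and 5067 with TMM. Among members, IRF9 then lost its call and IFITM3 gained one. Against indisulam it was higher in 23 and lower in 6 (22.0% and 23.9% of all genes). In 23 of 44 members the combination was above untreated, palbociclib and indisulam alike, each difference past the threshold, against 18.2% of all genes. In 4, OAS3, IFITM1, IFITM2 and IFI35, it was below all of them, against 16.2% of all genes. In at least 1 other setting IFIH1, DDX60, UBE2L6, IFIT1, OASL and IFI44, counted among the 23, and OAS3 lost their call against indisulam, all but UBE2L6 with DESeq2. The mean CPM of 28 of the 44 members tested was highest with the combination among the 5 A549 groups, as was that of 31.2% of all genes tested. These comparisons share libraries, so their calls are not independent.

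A further test asked whether the combination departed from the sum of both single-drug effects on the log2 scale. Of 44 members, 9 were above that sum and 5 below (10.7% and 14.5% of all genes). IFI27 was 4.05-fold above the sum (log2 2.02 ± 0.49, edgeR adjusted p = 0.0079), with 1.78 and 1.65 CPM under palbociclib and 1.17 and 1.12 under indisulam. Without untreated replicate 2 this value was 0.98 with an adjusted p of 0.37, since that library holds the higher of the 2 untreated levels. IFI6 was 2.61-fold above the sum, IFIT2 1.91-fold, SAMD9L 1.91-fold and IFIT3 1.8-fold. IFIT2 shows the pattern in its libraries. It stayed at 15.8 and 16.8 CPM with palbociclib and 15.9 and 18.7 with indisulam, near the untreated 15.0 and 15.5, and reached 33.9 and 36.9 with the combination.

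All 3 IFITM genes were below the sum. IFITM1 was at 2.38 and 2.93 CPM untreated, 4.38 and 3.29 with palbociclib, 5.05 and 5.82 with indisulam, and 1.21 and 0.579 with the combination. The combination pair lay below every other pair of these groups, and indisulam by itself raised the gene (log2 1.03 ± 0.23, edgeR adjusted p = 0.00248). The departure from the sum was -3.13 ± 0.39 (8.77-fold lower, adjusted p = 3.61e-05), and -3.73 without combination replicate 1. IFITM2 fell to 15.5 and 16.9 CPM from 37.9 and 35.1 untreated, and IFITM3 was at 55.3 and 54.3 CPM against 81.6 and 88.3 with indisulam. Genes on the opposite strand share 10.6% of the exon bases of IFITM1 and 16.3% of those of IFITM3, and the strand setting of the counting was not given in the sources used here.

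PF-06873600 raised 23 of 44 members in A549 and lowered 7, with a median log2 fold change of 0.41. Of all genes 28.5% rose and 27.8% fell, with a median of -0.0082. TRIM22 again rose most, to 45.3 and 41.2 CPM (16.6-fold, edgeR adjusted p = 3.06e-11). ISG15 rose to 7.04 and 6.74 CPM (8.11-fold), SAMD9L to 28.2 and 27.7 CPM (7.6-fold) and SAMD9 to 56.7 and 54.5 CPM (4.16-fold). OAS3, which fell with the combination, rose from 82.6 and 82.4 to 146 and 148 CPM (log2 0.83 ± 0.061). CMPK2, a mitochondrial nucleotide kinase, rose from 6 and 11 counts to 2.68 and 2.47 CPM (4.44-fold, adjusted p = 0.000131). The fallers were STING1, IRF9, USP18, IFIT5, IFITM1, IFITM2 and ISG20, of which IRF9, USP18 and IFIT5 were lost with DESeq2. STING1 went to 1.76 and 1.05 CPM (log2 -1.55 ± 0.30) and IFITM2 to 12.8 and 14.2 CPM (-1.43 ± 0.10).

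PF-06873600 was given for 7 days and the other treatments of A549 for 10, and all share the untreated libraries, so its values stand beside theirs without a test. The levels of UBE2L6, the enzyme that conjugates ISG15, were 46.8 and 47.3 CPM untreated, 67.9 and 66.9 with palbociclib, 87.4 and 91.4 with indisulam, 102 and 103 with the combination and 82.5 and 88.1 with PF-06873600. Replicates of a group were close, and every treated library lay above the untreated pair. IFI27 was at 3.52 and 3.52 CPM with PF-06873600, above either single drug and below the combination.

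In SUM159, PF-06873600 raised 28 of 46 members tested and lowered 10, with a median log2 fold change of 0.48, and 38.1% of all genes rose and 35.6% fell with a median of 0.020. CMPK2, with at most 2 counts, was not tested. IFI27 rose from 9.23 and 8.89 to 41.8 and 51.5 CPM (5.17-fold, log2 2.37 ± 0.11, edgeR adjusted p = 9.24e-11). IFI6 rose from 12.7 and 10.3 to 44.3 and 49.1 CPM (4.07-fold), and MX2, an MX1 relative at nuclear pores, from 4.04 and 3.38 to 14.3 and 15.3 CPM (3.99-fold). IFI6 shares 23.1% of its exon bases with a non-coding gene of the same strand, so some of its reads may have been set aside as ambiguous. TRIM22 rose 3.83-fold to 23.0 and 23.6 CPM and IFI44L 3.15-fold to 93.9 and 95.9 CPM. BST2, which tethers budding virus to the cell, rose from 77.1 and 73.8 to 175 and 181 CPM. LGALS3BP rose from 505 and 483 to 1362 and 1427 CPM and remained the most abundant member.

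All 4 IFIT genes fell in SUM159. IFIT1 went from 49.0 and 47.2 CPM to 16.0 and 14.7 (3.15-fold lower, log2 -1.65 ± 0.080, edgeR adjusted p = 1.14e-10), and IFIT2, IFIT3 and IFIT5 fell by 0.68, 0.70 and 0.23 on the log2 scale. IFIT5 did not pass with DESeq2. HERC5 fell from 16.2 and 14.8 to 4.33 and 4.21 CPM (3.63-fold lower) and OASL from 58.3 and 57.9 to 19.0 and 17.9 CPM (3.16-fold lower). SAMD9 fell from 97.9 and 97.9 to 51.3 and 45.5 CPM, while its neighbour SAMD9L rose from 31.4 and 33.6 to 91.4 and 86.0 CPM. IFI44 fell from 62.9 and 61.3 to 38.5 and 32.8 CPM, while its neighbour IFI44L rose. The other fallers were CGAS and PLSCR1, a phospholipid scramblase. Within each of these genes the treated and untreated pairs did not overlap. The other OAS genes moved against OASL, with OAS1, OAS2 and OAS3 rising by 1.65, 1.48 and 0.60 on the log2 scale, and the 3 IFITM genes rose as well.

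Leukocyte markers were read beside the SUM159 result, since blood cells express many of these genes. Their sum over 7 genes was 10.31 and 10.96 CPM untreated and 24.2 and 22.2 with PF-06873600, led by PTPRC (CD45) at 9.35 and 9.90 and then 20.3 and 17.9 CPM. CD14, a monocyte marker, went from 13 and 14 counts (0.784 and 0.877 CPM) to 56 and 82 (3.27 and 3.88 CPM), and LYZ from no count to 4 and 4. FCER1G had 3 to 6 counts in each SUM159 library, and CD3E, MS4A1 and TYROBP, which mark T cells, B cells and myeloid cells, had none. In A549 the sum ran from 6.87 to 15.9 CPM, led by CD14. The part of these transcripts in the result was not tested.

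The response to PF-06873600 was compared between the lines by a test of the difference itself. It was higher in SUM159 for 19 of 47 members and lower for 17 (25.8% and 27.2% of all genes), with a median of 0.17 against 0.035 over all genes, or 0.18 without XAF1, which had no count in untreated A549. Of 43 members tested in both lines, 13 rose in both (13.4% of all genes), among them IRF1, TRIM22, SAMD9L, IFI6, IFI27, IFI44L and LGALS3BP, and 1 fell in both (11.8% of all genes), IFIT5, which lost its call in both lines with DESeq2. IFI44L lost its A549 call with DESeq2, with only the compared groups and without some single libraries. HERC5, IFIT1, OASL, SAMD9 and IFI44 rose in A549 and fell in SUM159, as 10.5% of all genes did. STING1, IFITM1 and IFITM2 fell in A549 and rose in SUM159, as 9.30% of all genes did. The shares of members with opposite calls, 5 and 3 of 43, were thus near those of all genes. All 8 differences between the lines passed the threshold, although the A549 rises of HERC5 and IFIT1 were lost with DESeq2. That of HERC5 was also lost when any 1 of the compared A549 libraries was left out. That of IFIT1 was also lost in a fit of only the compared groups and without some single libraries.

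SAMD9 gave the most precise of these differences. It rose from 12.9 and 13.8 CPM to 56.7 and 54.5 in A549 and fell from 97.9 and 97.9 to 51.3 and 45.5 in SUM159, so that the treated libraries of both lines lay within 45.5 to 56.7 CPM. The difference was -3.08 ± 0.12 (log2, edgeR adjusted p = 1.48e-13). OASL had the largest difference, -4.01 ± 0.44 (adjusted p = 3.01e-07), with 16 and 15 counts in treated A549 against 3 and 3. IFITM1 differed by 3.21 ± 0.35, falling in A549 from 2.38 and 2.93 to 0.842 and 0.742 CPM and rising in SUM159 from 13.6 and 10.8 to 33.3 and 33.9 CPM. STING1 differed by 2.59 ± 0.28 and rose in SUM159 from 28.8 and 29.6 to 61.7 and 58.5 CPM. ISG15 rose in A549 and measured 22.4 and 19.6 CPM untreated and 21.8 and 24.0 CPM treated in SUM159, where the treated and untreated pairs overlap.

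**Figure D3:**
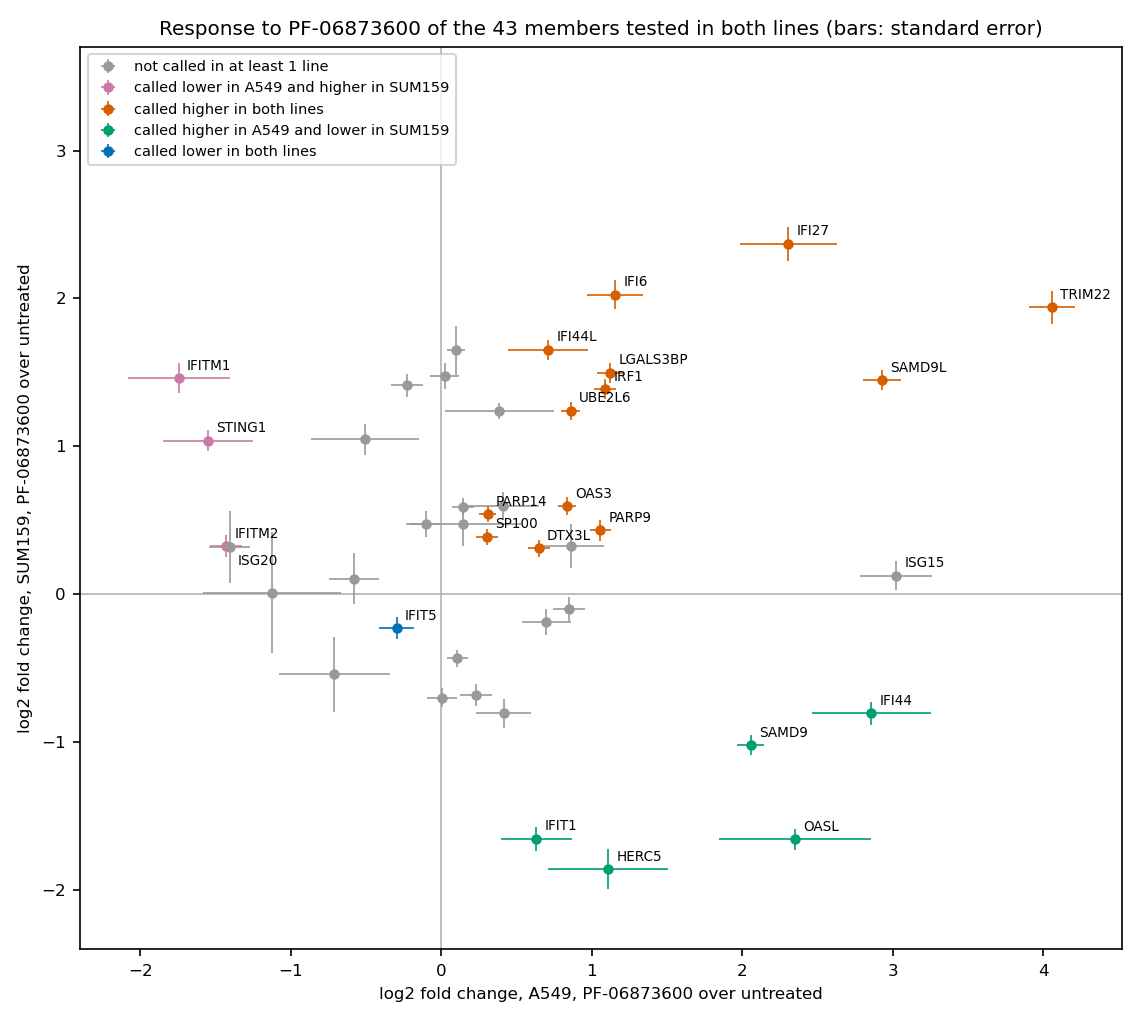
Log2 fold change with PF-06873600 over untreated in A549 (horizontal) and SUM159 (vertical) for the 43 members tested in both lines, with standard errors as bars and colours for the calls. TRIM22, SAMD9L, IFI27 and IFI6 lie high in both lines, and HERC5, IFIT1, OASL, SAMD9 and IFI44 lie in the quadrant of rises in A549 and falls in SUM159.

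Untreated lines differed before any drug. Of 47 members, 33 were higher in SUM159 and 10 lower (41.9% and 36.8% of all genes), with a median log2 difference of 1.66 against 0.078 over all genes (1.66 also with XAF1 at its lower bound). Under TMM scaling, the 7242 higher and 6365 lower calls over all genes became 6727 and 6848, with a median of -0.015. Among members, IRF1 and PLSCR1 then lost their call and IRF9 gained one. For 23 of 47 members both untreated SUM159 libraries lay above every A549 library of any group, against 33.7% of all genes. OASL had 967 and 924 counts in untreated SUM159 against 3 and 3 in A549, a ratio of 288 with an exact 95% interval of 132 to 785. XAF1 had 167 and 184 counts against 0 and 0, at least 53.5-fold above the floor. All 5 sensing genes were higher in SUM159, CGAS at 23.5 and 22.5 CPM against 3.60 and 3.60, and STING1 at 28.8 and 29.6 CPM against 4.49 and 3.60. OAS1 went the other way, at 2.95 and 2.94 CPM in SUM159 and 111 and 112 CPM in A549 (37.8-fold lower). STAT2, OAS2, OAS3, PARP9, DTX3L, PARP14, IFI35, ISG20 and CMPK2 were also lower in SUM159. HERC5, IFIT1, OASL, SAMD9 and IFI44, the members that rose in A549 and fell in SUM159, are all among these 23. So are STING1, IFITM1 and IFITM2, which fell in A549 and rose in SUM159, and BST2, IFI44L and XAF1, which rose in SUM159. A high untreated level in SUM159 thus does not set the first 5 apart.

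**Figure D4:**
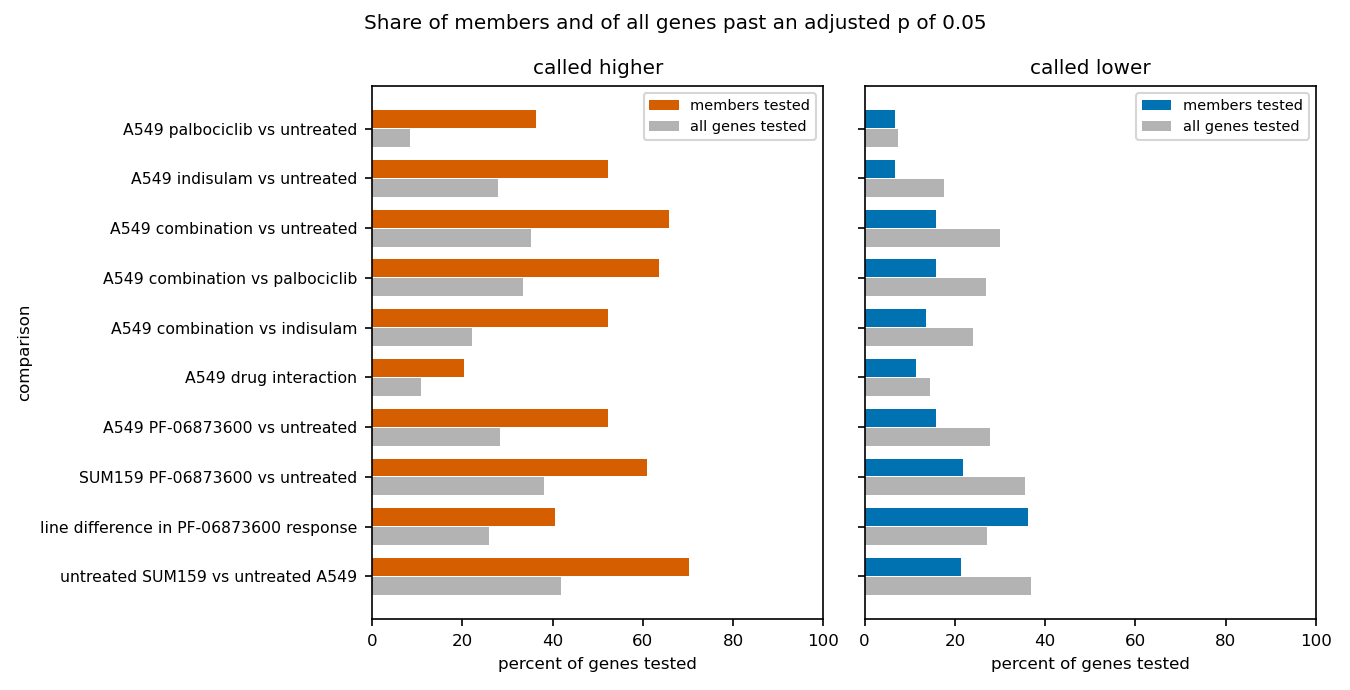
Percent of members tested (coloured bars) and of all genes tested (grey bars) called higher (left) or lower (right) at an adjusted p under 0.05 in each of the 10 comparisons. The share of members called higher exceeds that of all genes in each comparison, from 20.5% against 10.7% for the drug interaction to 70.2% against 41.9% between the untreated lines.

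Genes that act upstream of the members were taken from a separate list. Of 9 tested receptor and signalling genes, 3 rose and 1 fell with palbociclib, 6 rose with indisulam, 7 with the combination and 6 with PF-06873600 in A549, and 7 rose and 1 fell with PF-06873600 in SUM159. Of all genes 8.30%, 28.0%, 35.1% and 28.5% rose in the A549 comparisons, in the same order, 7.40% fell with palbociclib, and 38.1% rose and 35.6% fell in SUM159. JAK1 rose from 134 and 135 CPM untreated to 388 and 422 with the combination (log2 1.59 ± 0.058) and departed from the sum of the single drugs by 0.86 ± 0.082 (edgeR adjusted p = 2.83e-06). IFNGR1, a chain of the interferon gamma receptor, rose in all 5 comparisons with untreated cells, from 32.9 and 40.5 to 88.1 and 89.4 CPM with the combination and from 59.4 and 55.9 to 178 and 180 CPM in treated SUM159. The type I receptor chains IFNAR1 and IFNAR2 rose in SUM159 (log2 0.65 and 0.62), and in A549 IFNAR2 rose with the combination (0.32). IFNLR1, the specific chain of the type III receptor, rose in A549 with indisulam, the combination and PF-06873600 (0.57 for PF-06873600). It measured 1.90 and 2.13 CPM in untreated A549, 3.32 and 3.30 with indisulam, and 3.33 and 3.48 with the combination. With PF-06873600 it fell in SUM159 (-0.51). IL10RB, its partner, was too low for the test, with at most 0.793 CPM. A readthrough gene of the same strand shares 14.7% of the exon bases of IFNAR2 and 21.6% of those of IL10RB, so reads from both may have been set aside as ambiguous.

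Sensors and adaptors rose in 1 of 10 genes tested with palbociclib, 7 with indisulam, 9 with the combination and 5 with PF-06873600 in A549, with none falling, where 8.30%, 28.0%, 35.1% and 28.5% of all genes rose. The count with palbociclib was near that of all genes. In SUM159 6 of 11 rose and 3 fell, against 38.1% and 35.6% of all genes. RIG-I (RIGI), which senses viral RNA, rose in each of these comparisons, from 23.0 and 25.7 to 51.6 and 52.7 CPM with the combination and from 20.3 and 16.9 to 34.1 and 32.4 CPM in SUM159. In SUM159 the kinase TBK1, the transcription factor IRF3 and the kinase EIF2AK2 fell (log2 -0.46, -0.59 and -0.32) and IKBKE rose (1.56). Among negative regulators SOCS3 rose most with indisulam, from 10.5 and 9.33 to 29.9 and 29.3 CPM, and was at 17.9 and 16.1 CPM with the combination, below the sum of the single drugs (-1.38 ± 0.17, edgeR adjusted p = 3.75e-05). SOCS1, with at most 5 counts in an A549 library, rose in SUM159 from 2.53 and 1.75 to 8.77 and 8.42 CPM. PTPN2 fell with the combination and with PF-06873600 in both lines.

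**Figure D5:**
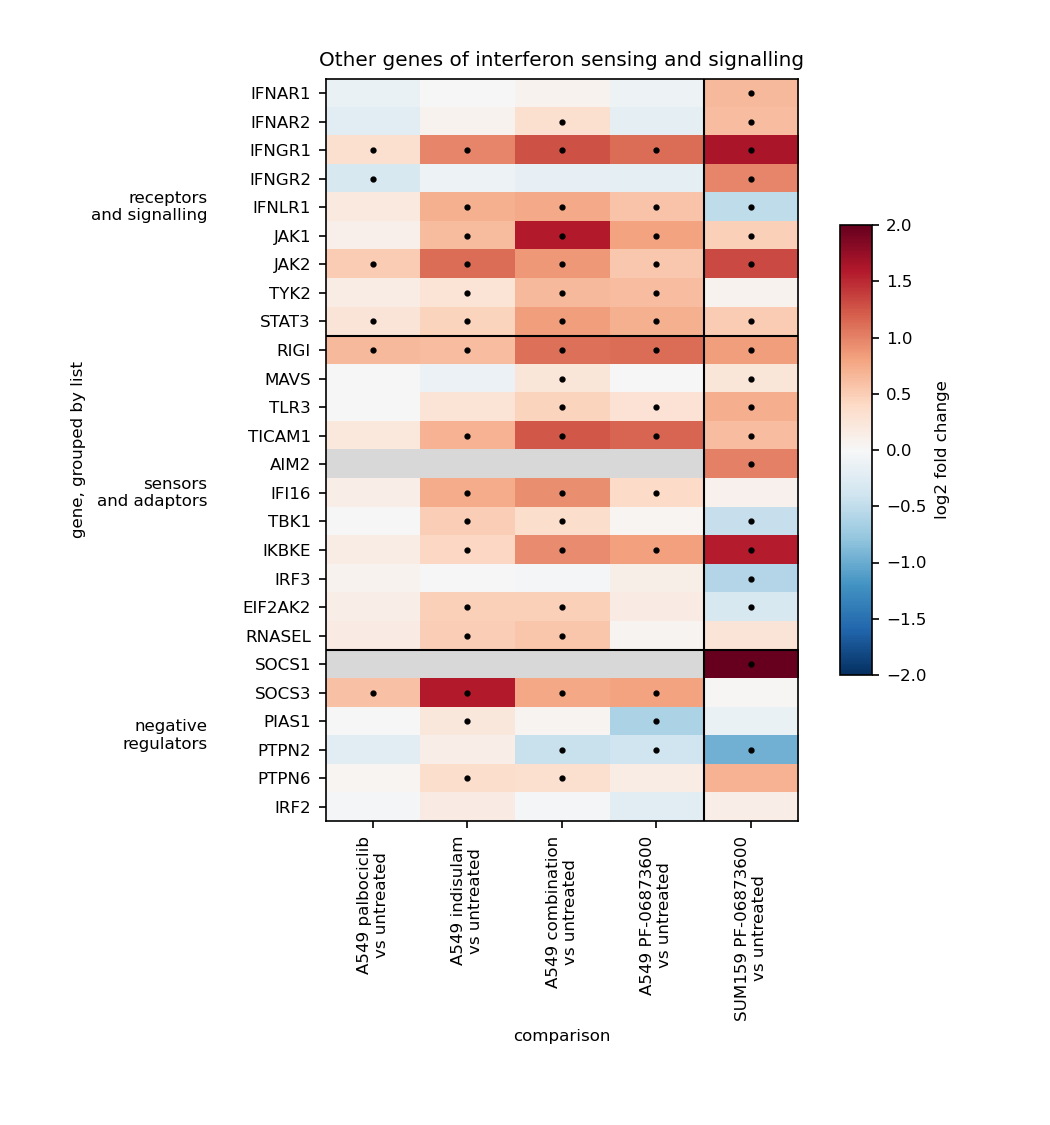
Log2 fold change over untreated cells (colour scale from -2 to 2) of the receptor, signalling, sensor and regulator genes tested, for the 4 A549 treatments and for SUM159 with PF-06873600. Black dots mark an adjusted p under 0.05, and grey cells were not tested. IFNGR1, JAK2, STAT3 and RIGI carry a dot in every column.

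Of 7 nucleic acid clearance genes 5 were tested. SAMHD1, which hydrolyses deoxynucleotides, rose in every comparison with untreated cells, from 9.31 and 8.60 to 22.7 and 20.02 CPM with the combination and from 91.7 and 87.5 to 147 and 145 CPM in SUM159. RNASEH2B fell with the combination (log2 -0.44) and in SUM159 (-0.73). DNASE2, the lysosomal DNA nuclease, fell with PF-06873600 in A549 (-0.75) and rose in SUM159 (1.33). TREX1 was listed at 0 in every library and all of its exon bases overlap a gene on the same strand, so that reads from it may have been set aside as ambiguous, and RNASEH2A has 53.3% of its exon bases so placed.

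Further interferon-inducible genes outside the 47 numbered 35. Of 28 tested in A549, 12 rose and none fell with palbociclib, 20 rose and 2 fell with indisulam, 23 rose and 2 fell with the combination, and 20 rose and 1 fell with PF-06873600. Rises among all genes were 8.30%, 28.0%, 35.1% and 28.5% in that order, and falls 7.40%, 17.5%, 30.0% and 27.8%. Guanylate-binding protein GBP1, an interferon gamma target active against intracellular pathogens, was at 1.77 and 1.60 CPM untreated, 4.68 and 4.76 with palbociclib, 9.19 and 8.46 with indisulam, 38.2 and 36.8 with the combination and 21.2 and 21.9 with PF-06873600. Each treated pair lay above the untreated pair, and the log2 fold change with the combination was 4.47 ± 0.13 (edgeR adjusted p = 9.52e-13). APOL1, a lytic lipoprotein component, rose from 30.4 and 27.4 to 181 and 183 CPM with the combination, which exceeded the summed log2 effects of palbociclib and indisulam by 1.19 ± 0.098.

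In SUM159, 27 of 34 such genes rose and 3 fell, against 38.1% and 35.6% of all genes. IDO1, which degrades tryptophan, went from 0.241 and 0.0626 CPM to 11.98 and 12.5 CPM (log2 6.25 ± 0.30, edgeR adjusted p = 1.05e-10), and the chemokines CXCL10 and CXCL11 from 0.663 and 0.626 to 4.62 and 4.16 CPM and from 0.724 and 1.25 to 7.31 and 7.33 CPM. CIITA, the activator of MHC class II genes, rose from 0.603 and 0.438 to 8.59 and 7.71 CPM and TNFSF10, the death ligand TRAIL, from 0.482 and 0.376 to 6.08 and 6.34 CPM. CXCL10 and CXCL11 had no count in any A549 library, and IDO1 had at most 0.451 CPM there. The antigen processing genes TAP1, PSMB8 and PSMB9 rose in SUM159 and with indisulam, the combination and PF-06873600 in A549. TAP1 stood at 24.9 and 22.8 CPM in untreated A549, 62.6 and 57.7 CPM with the combination, and in SUM159 at 91.9 and 92.6 CPM untreated and 169 and 181 CPM with PF-06873600.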

How the data were processed

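The authors sequenced stranded mRNA libraries single-end and deposited, for each library, counts of reads per gene with 9 summary lines. The submitters' processing notes name HISAT2 2.2.1 and HTSeq and build hg38, while the annotation release and strand setting are not given in the sources used here. Summary lines were left out of library sizes. About 3.38% to 4.00% of reads were ambiguous between genes, and no molecular identifiers were used, so intervals and floors cover counting error only. Of 60683 identifiers, 60370 were matched to symbols and GENCODE 44 coordinates. Counts were tested with the quasi-likelihood F test of edgeR 4.0.16 in R 4.3.3, with the total on genes as library size and filterByExpr, in models of A549 (10 libraries, 15780 genes), SUM159 (4 libraries, 15055 genes) and both lines (14 libraries, 17279 genes). P-values were Benjamini-Hochberg adjusted over all genes tested, with a threshold of 0.05, and SEs were derived from the log2 fold change and F. An exact permutation test of 2 against 2 libraries cannot go below 0.333. On simulated data, 90.5% of 200 changed genes were recovered for the combination (15331 genes), 72% of those changed 1.5-fold, and 6.22% of calls were false. For PF-06873600 in SUM159 (14824 genes) 94% were recovered and 9.18% of calls were false, above the nominal 5%. For the line difference (16192 genes) 87.5% were recovered, 68% of those changed 1.5-fold, and 4.37% of calls were false. The changed genes were drawn only from those above a minimum mean count, and all genes had the same simulated dispersion. Far fewer genes changed than were called in the data, so these rates need not hold for members with few counts. DESeq2 1.42.0, TMM, other count filters, subsets of groups, a replicate block and left-out libraries served as alternatives. Up to 8 called members per comparison, with at least 1 CPM, no overlap and the largest change, were named, besides the ligands, and other members and pathway genes were named where they complete a group. The members and lists were chosen with earlier results of these data known, and 2 genes of the pathway and marker lists are not reported here.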

Additional observations from a re-analysis of the deposited data

Results flagged for a closer look

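The responses of 8 members to PF-06873600 differed between SUM159 and A549 by the interaction term of the edgeR model, each with a log2 difference of SUM159 minus A549. OASL differed by -4.01 (adjusted p = 3.01e-07), IFI44 by -3.66 (1.1e-07), SAMD9 by -3.08 (1.48e-13) and HERC5 by -2.96 (3.97e-06), and these 4 rose in A549 and fell in SUM159. The rise of HERC5 in A549 lost its call with DESeq2 and when any 1 of the compared A549 libraries was left out. ISG15 differed by -2.90 (2.22e-08), having risen in A549 and not passed the threshold in SUM159. IFITM1 differed by 3.21 (2.32e-07) and STING1 by 2.59 (2.32e-07), and both fell in A549 and rose in SUM159. MX2 differed by 2.94 (0.00358), but it had 7 and 3 counts in untreated and 1 and 4 in treated A549, and without untreated A549 replicate 1 the difference was 2.21 with an adjusted p of 0.119. Without PF-06873600 A549 replicate 2 it was 4.02. OASL and IFI44 rest on 3 to 7 counts in each untreated A549 library, and without untreated A549 replicate 2 the difference of IFI44 was -4.37.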

How the results depend on the processing

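Of 210 recomputed counts of members called, 201 stayed within 1.5 times of the reported count, and of 827 recomputed results of named genes 808 kept their direction and call, 19 lost the call and none reversed. With palbociclib, the members lower (3 reported) numbered 0 with DESeq2 and 1 with only the compared groups, and 0 to 4 when 1 library was left out. The members higher (16 reported) numbered 7 with only the compared groups and 11 to 16 with 1 library left out. With PF-06873600 in A549, the members lower (7 reported) numbered 4 with DESeq2, 4 with a mean of at least 50 counts and 4 to 8 with 1 library left out. Of the recomputed medians of members, 99 moved by no more than the spread between replicates and 6 moved by more, and the values of these 6 are among those that follow. The median log2 fold change of the combination (0.97) was 0.88 with TMM, 1.13 without a filter and 0.89 to 1.02 with 1 library left out. The median was 0.51 in SUM159 (0.48 reported) and 1.90 between untreated lines (1.66 reported) with a mean of at least 50 counts, and 0.51 in SUM159 without PF-06873600 replicate 1. IFI27 lost its call in the drug interaction without untreated replicate 2 (0.98, adjusted p = 0.37), and between the combination and indisulam 7 members, IFIH1, DDX60, USP18, IFIT1, OAS3, OASL (adjusted p = 0.054) and IFI44, lost it with DESeq2. With palbociclib, 12 of 19 called members lost their call in at least 1 setting: DTX3L, HERC6, IFI27, IFI35, IFI44L, IRF1, ISG20, LGALS3BP, OAS3, OASL, STING1 and TRIM22. In the other comparisons the share lost ran from 3 of 43 between untreated lines to 4 of 14 in the drug interaction. The cause of these changes was not tested.

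Whether the replicate numbers pair the samples is not stated in the labels, and they were not treated as pairs. With only 2 libraries per group, same-number correlations ran from -0.274 to 0.230 and cannot settle this. With a replicate block the members called numbered 16 higher and 2 lower for palbociclib, 29 and 7 for the combination, 23 and 7 for PF-06873600 in A549, 28 and 10 in SUM159 and 32 and 10 between untreated lines. The fit of only the compared groups was not run for SUM159, whose model holds only those groups, nor for the interaction terms. Depth limits OASL, IFI44, MX2, RSAD2, XAF1 and CMPK2 in A549, which had few counts untreated.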
